A study of Mus musculus with 2 samples.

Results

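Shallow astrocyte-like barcodes were the droplets of 2 hippocampal single-cell libraries that held under 1000 unique molecular identifiers (UMIs, each standing for 1 captured RNA molecule) and still carried astrocyte transcripts. Members were selected on their detected genes and UMI totals: a barcode was a member when at least 3 of the 10 genes Gja1, Aqp4, Aldoc, Slc1a3, Slc7a10, Gria2, Ntm, Dclk1, Bcan and Grin2c were detected and none of the 6 genes Cx3cr1, Csf1r, Cldn5, Flt1, Mog and Ermn was. The rule was met by 1061 of 28586 barcodes, 294 of 7003 in the EMF_AuNPs library and 767 of 21583 in the control library. The EMF_AuNPs library came from hippocampus of male C57BL/6 mice aged 6 months that had gold nanoparticles injected into the hippocampus and spent 3 weeks in an electromagnetic field between Helmholtz coils. The control library came from hippocampus of male C57BL/6 mice of the same age that received saline. The sample titles call both brains aged. Whether the control mice also stood between the coils is not clear from the protocol, and the number of mice per library is not given in the sources used here.

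Astrocytes clear glutamate and potassium from around synapses, supply lipids and lactate to neurons, couple to each other through gap junctions and contact vessels with water channels at their endfeet. Their RNA is rich in transporters and apolipoproteins. In droplet data a barcode with few UMIs may hold a damaged cell, a fragment, a nucleus or free RNA, and free RNA gives every droplet some transcripts of other cell types.

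The 2 libraries held 19544686 UMIs in EMF_AuNPs and 51091452 UMIs in control, with a median of 2310 and 1904 UMIs per barcode. Members held 1.17% of the EMF_AuNPs UMIs and 1.06% of the control UMIs. The libraries shared 38 barcode sequences, with 0 shared between the members of both. With 1 library per group, no test of the treatment was possible: intervals below are 95% intervals that cover counting error only, and 1.5-fold is used as a fixed size for calling a gene higher or lower.

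The members' share of shallow barcodes differed between the libraries by less than counting error. Of the barcodes under 1000 UMIs, 294 of 1382 were members in EMF_AuNPs (21.3%, Clopper-Pearson 19.1 to 23.5%) and 767 of 3651 in control (21.0%, 19.7 to 22.4%), a difference of 0.266 percentage points (Newcombe interval -2.21 to 2.85). Of all barcodes, members were 4.20% in EMF_AuNPs and 3.55% in control, a difference of 0.644 points (0.131 to 1.19). Barcodes under 1000 UMIs were themselves 19.7% of the EMF_AuNPs library and 16.9% of the control library. The members' depth differed: EMF_AuNPs members ran from 505 over a median of 787 to 998 UMIs, and control members from 500 over 688 to 999 UMIs. A median of 519 genes was detected per EMF_AuNPs member and 431 per control member. The difference in the share of shallow barcodes was -2.63 points (-4.84 to -0.29) without barcodes that carried a precursor UMI, 3.24 points when every barcode was thinned to 500 UMIs before the rule, and 14.7 points without the clause on the 6 absent genes.

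**Figure D1:**
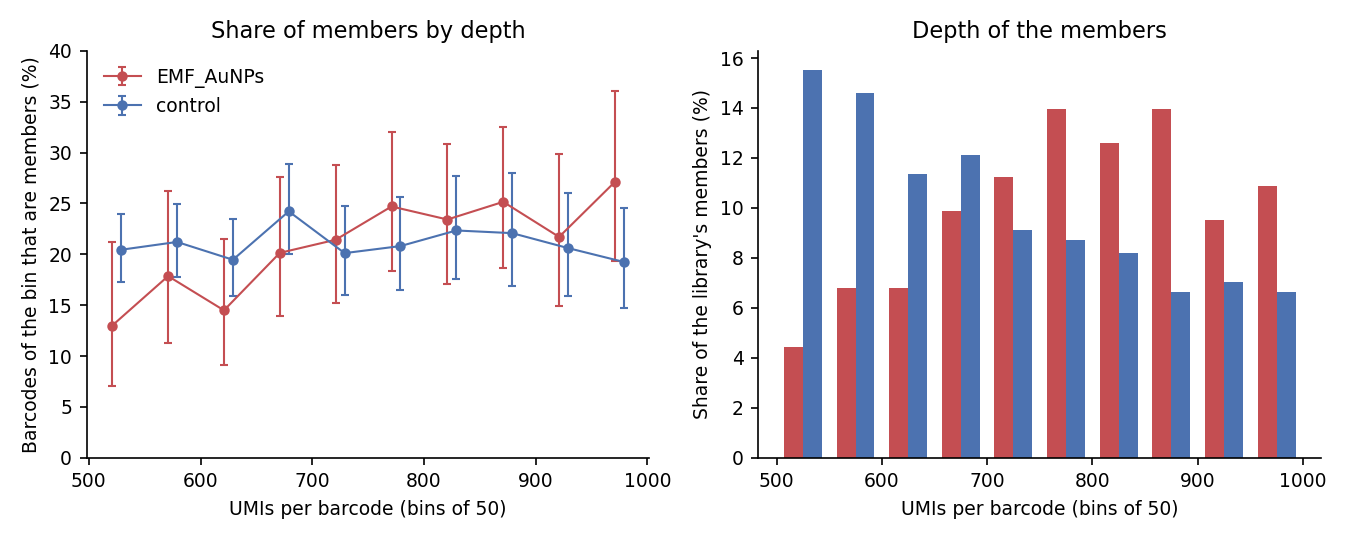
The left panel plots the share of barcodes that are members (%) in bins of 50 UMIs, with Clopper-Pearson 95% intervals, for EMF_AuNPs (red) and control (blue); the right panel plots how each library's members spread over the same bins (%). The share ran between 13.0% and 27.1% in EMF_AuNPs and between 19.2% and 24.2% in control, and control members lay at lower UMI totals.

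The same gene count was often reached by barcodes with RNA of other cells. Among shallow barcodes that carried at least 1 of the 6 excluded genes, 3 or more of the 10 astrocyte genes were detected in 444 of 936 in EMF_AuNPs (47.4%) and 646 of 2230 in control (29.0%). Where the excluded genes gave 3 or more UMIs, so that another cell type was well represented, the share was still 29.8% in EMF_AuNPs and 15.7% in control, at median depths of 783.5 and 758.5 UMIs. Without an excluded gene it was 65.9% in EMF_AuNPs and 54.0% in control. Of all shallow barcodes with 3 or more astrocyte genes, 60.2% in EMF_AuNPs and 45.7% in control carried an excluded gene and so were not members. The microglial receptors Cx3cr1 or Csf1r were found in 30.4% and 19.2% of them, the myelin genes Mog or Ermn in 29.4% and 14.1%, and the endothelial genes Cldn5 or Flt1 in 19.0% and 23.6%, EMF_AuNPs first in each pair.

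The 10 genes of the rule chose the members, so their values are a description only. Aldoc, the brain aldolase of glycolysis, was detected in 88.4% of EMF_AuNPs members and 84.1% of control members, but also in 81.4% and 56.7% of the shallow barcodes with 3 or more UMIs of excluded genes. Bcan, the matrix proteoglycan brevican, was found in 74.1% of EMF_AuNPs members and 62.3% of control members, against 26.6% and 14.3% in those barcodes of other cells. Gja1, the gap junction protein connexin 43, was found in 28.2% of EMF_AuNPs members and 49.3% of control members, although the EMF_AuNPs members were deeper. Its summed level was 440.0 counts per 1000000 UMIs (CPM) in EMF_AuNPs members and 1332 CPM in control members. Slc1a3, the glutamate transporter GLAST, was found in 58.8% and 57.1%, and Aqp4, the endfoot water channel, in 21.4% and 25.03%. The neutral amino acid transporter Slc7a10 was found in 38.1% of EMF_AuNPs members and 25.03% of control members, and the NMDA receptor subunit Grin2c in 29.3% and 18.3%. Gria2, Ntm and Dclk1, which neurons also express, were found in 53.7%, 39.8% and 59.2% of EMF_AuNPs members and in 43.2%, 45.1% and 48.5% of control members. The median number of rule genes was 5 per EMF_AuNPs member and 4 per control member, and 98.6% and 97.9% held at least 1 of the 6 rule genes other than Gria2, Ntm, Dclk1 and Bcan. At least 3 of those 6 were held by 53.4% of EMF_AuNPs members and 51.2% of control members. The remaining members reached the limit of 3 only with the help of Gria2, Ntm, Dclk1 or Bcan.

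Astrocyte genes that the rule did not use were present in nearly all members, beside RNA of other cells. The sum of 22 such genes was 20166 CPM in EMF_AuNPs members (19589 to 20755) and 22496 CPM in control members (22099 to 22899), against 13242 and 9849 CPM in the other shallow barcodes of the same libraries. At least 3 of the 22 genes were detected in 96.9% of EMF_AuNPs members and 92.8% of control members, and in 88.8% and 67.2% of the other shallow barcodes. Slc1a2, the main glutamate transporter of astrocytes, had 7166 CPM in EMF_AuNPs members and 7065 CPM in control members, against 4464 and 3510 CPM in the other shallow barcodes. Gfap, the intermediate filament of astrocytes, had 418.2 and 414.6 CPM in members, and 292.1 and 213.8 CPM in the others. On the log2 scale the sum was higher in members than in other shallow barcodes by 0.61 in EMF_AuNPs and by 1.19 in control. The other shallow barcodes are those that failed the rule, through too few astrocyte genes or a gene of another cell type. The rule itself therefore favours this direction too, and the difference is a description only.

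Markers of other cells were present in the same members. The choroid plexus list, led by Ttr, the thyroid hormone carrier transthyretin, gave 15836 CPM in EMF_AuNPs members and 26023 CPM in control members, and Ttr alone gave 15038 and 25279 CPM. It was as high in the other shallow barcodes, at 14262 and 26760 CPM. Haemoglobin was found in every EMF_AuNPs member, with 0 of 294 without a UMI, which allows a share of up to 1.25% (exact upper bound), while 221 of 767 control members (28.8%) had none. The red blood cell list gave 25241 CPM in EMF_AuNPs members and 7442 CPM in control members. Without the members that took over 5% of their UMIs from Ttr or haemoglobin, it was 17234 CPM in EMF_AuNPs and 1647 CPM in control. Microglial genes other than the rule's pair gave 5933 CPM in EMF_AuNPs members and 2987 CPM in control members, and oligodendrocyte genes 7476 and 3589 CPM. Both lists were lower in members than in the other shallow barcodes, where the microglial list gave 14946 and 9377 CPM and the oligodendrocyte list 8562 and 9856 CPM. Those other barcodes include every shallow barcode with an excluded gene, 936 of 1088 in EMF_AuNPs and 2230 of 2884 in control. The rule itself therefore favours this direction. The neuron list gave 828 CPM in EMF_AuNPs members and 1703 CPM in control members. In control, 36 members with 5 or more UMIs of that list held 44.9% of its UMIs, and in EMF_AuNPs 9 members held 27.9%. The endothelial list gave 1756 CPM in EMF_AuNPs members and 1452 CPM in control members, with 7 and 11 UMIs of its defining marker Pecam1. The oligodendrocyte precursor list gave 609.9 CPM in EMF_AuNPs members and 354 CPM in control members, with 3 UMIs of its defining marker Pdgfra in each. A UMI of any of 5 precursor genes (Pdgfra, Cspg4, Olig1, Olig2, Sox10) was found in 27.9% of EMF_AuNPs members and 14.5% of control members.

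**Figure D2:**
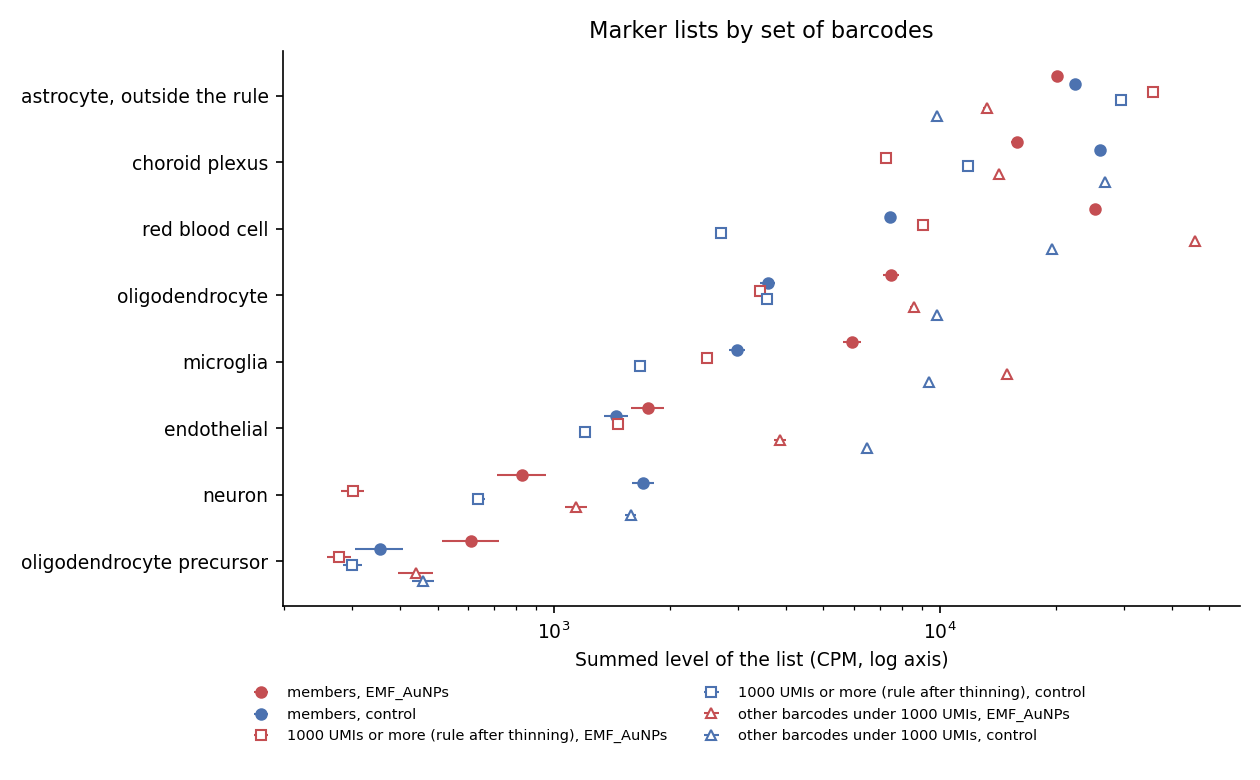
The plot gives the summed level of each marker list in CPM (log axis) with 95% counting intervals, for members (filled circles), barcodes of 1000 UMIs or more that meet the rule after thinning (squares) and other barcodes under 1000 UMIs (triangles), in EMF_AuNPs (red) and control (blue). Astrocyte genes outside the rule lie lower in members (20166 and 22496 CPM) than in the deeper barcodes (35681 and 29594 CPM), while the choroid plexus, red blood cell, microglia and neuron lists lie higher in members.

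Members differed widely in Malat1, an abundant long noncoding RNA that stays in the nucleus. Malat1 took a median of 11.4% of a member's UMIs in EMF_AuNPs (lowest 0.104%, highest 35.0%) and 10.6% in control (lowest 0%, highest 39.8%). It was under 2% in 56 of 294 EMF_AuNPs members (19.0%, 14.7 to 24.0%) and in 195 of 767 control members (25.4%, 22.4 to 28.7%). Between 1% and 3%, near that limit, lay 23 EMF_AuNPs members and 69 control members. In barcodes of 1000 UMIs or more that met the rule after thinning, Malat1 was under 2% in 6.64% in EMF_AuNPs and 1.37% in control. Where deeper barcodes met the same gene rule without thinning, the shares were 18.01% in EMF_AuNPs and 7.56% in control. Among other shallow barcodes Malat1 was under 2% in 34.6% in EMF_AuNPs and 42.2% in control.

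Malat1-poor members held more RNA of several cytoplasmic gene groups, counted per 1000000 UMIs other than Malat1. The nuclear-encoded respiratory chain list gave 41619 against 30338 in the remaining members in EMF_AuNPs (log2 difference 0.46, 0.38 to 0.54) and 51620 against 36722 in control (0.49, 0.45 to 0.53). Mt1, a metal-binding metallothionein, gave 7852 against 4746 in EMF_AuNPs (0.73) and 9837 against 6003 in control (0.71). Mt3, the metallothionein of the brain, gave 6647 against 3861 in EMF_AuNPs (0.78) and 11827 against 7081 in control (0.74). Mt2, a further metallothionein, gave -0.05 (-0.70 to 0.56) in EMF_AuNPs and 0.67 (0.38 to 0.95) in control. The glycolysis list was higher by 0.56 in EMF_AuNPs and 0.53 in control. Ribosomal protein genes were higher by 0.12 and 0.20. The astrocyte genes outside the rule were lower in the Malat1-poor members, by -0.13 in EMF_AuNPs and -0.35 in control, and so were the ion and gap junction genes, by -0.31 and -0.32. The red blood cell list was higher in the Malat1-poor members by 1.65 in EMF_AuNPs and 3.55 in control, and the choroid plexus list by 0.63 and 0.24. Both turned without the members over 5% Ttr or haemoglobin, which left 49 of 56 Malat1-poor members in EMF_AuNPs and 178 of 195 in control: the red blood cell list was then -0.12 and -0.63, and the choroid plexus list -0.33 and -0.17. The respiratory chain list was 0.53 in EMF_AuNPs and 0.54 in control there, and Mt3 0.91 and 0.81. The astrocyte genes outside the rule were 0.00079 (-0.11 to 0.11) in EMF_AuNPs and -0.28 (-0.34 to -0.22) in control.

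**Figure D3:**
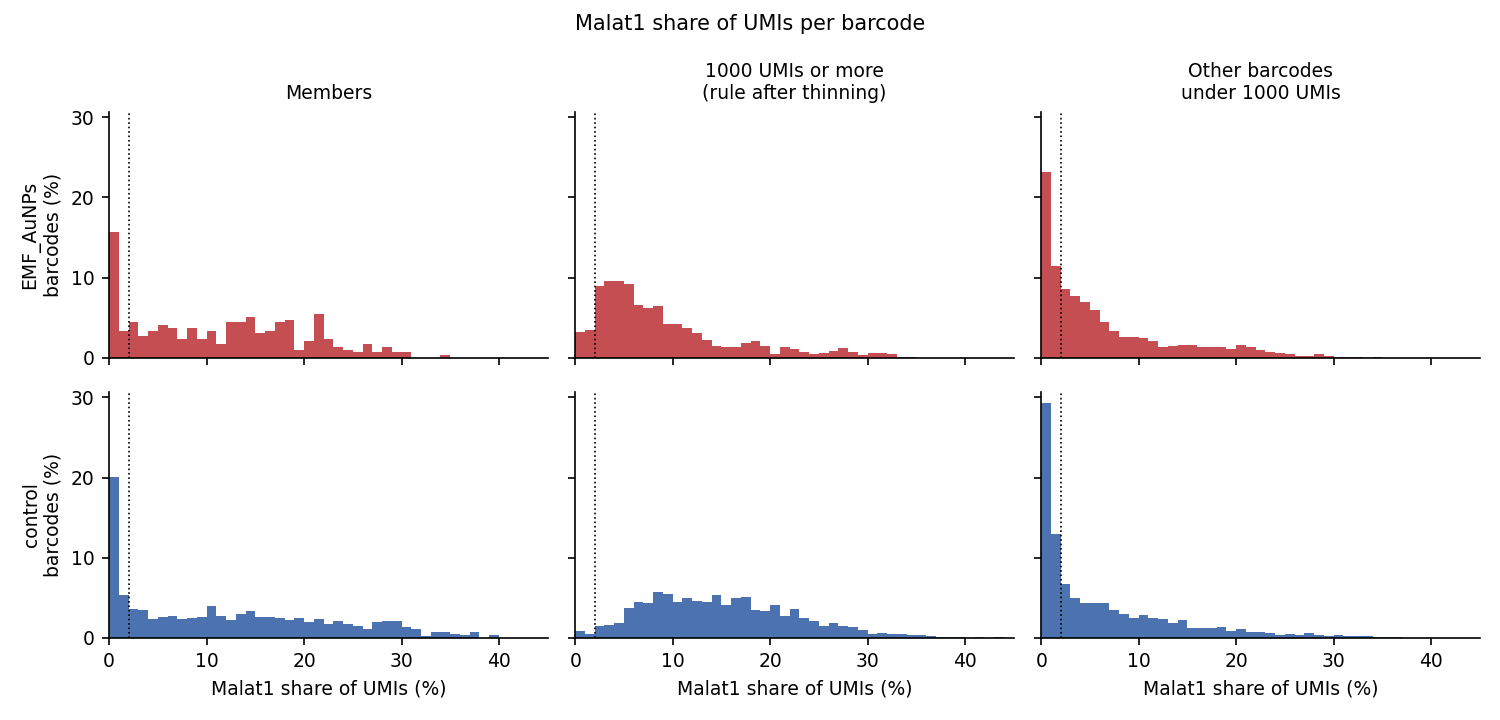
The histograms give the share of barcodes (%) by the Malat1 share of their UMIs (%) for members, barcodes of 1000 UMIs or more that meet the rule after thinning, and other barcodes under 1000 UMIs, in EMF_AuNPs (top) and control (bottom); the dotted line marks 2%. Members show a peak under 2% (19.0% and 25.4% of members) that is small in the deeper barcodes (6.64% and 1.37%).

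Within the members, depth and the number of rule genes moved with the makeup of the barcode. Members were put in 4 classes of depth, with median totals of 573, 691, 813 and 923.5 UMIs in EMF_AuNPs and 560, 687, 808 and 934 UMIs in control. From the shallowest to the deepest class, the astrocyte genes outside the rule gave 17990, 18991, 20496 and 21271 CPM in EMF_AuNPs members. In control members they gave 19826, 22020, 24040 and 24915 CPM. Malat1 gave 56827, 90978, 127534 and 149844 CPM in the same classes of EMF_AuNPs members, and 99528, 131087, 131023 and 148916 CPM in control members. Both were thus higher in deeper members, except Malat1 in the middle pair of control classes. Members with 5 or more rule genes had 22468 CPM of the astrocyte genes outside the rule in EMF_AuNPs and 28024 CPM in control, against 17082 and 17469 CPM in members with 3 or 4. The oligodendrocyte list in control was 2213 CPM with 5 or more rule genes and 4841 CPM with 3 or 4, while in EMF_AuNPs it was 7335 and 7665 CPM.

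Values just inside and just outside the limits of the rule were compared. Members of 900 UMIs or more (60 in EMF_AuNPs, 105 in control) had 20219 and 24404 CPM of the astrocyte genes outside the rule, and barcodes from 1000 to under 1100 UMIs that met the same gene rule (48 and 116) had 20522 and 25737 CPM. Members with exactly 3 rule genes (67 and 235) had 14575 and 14405 CPM, and barcodes with 2 rule genes (77 and 245) had 10317 and 11204 CPM.

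Members were then set against astrocyte barcodes of 1000 UMIs or more, in 2 ways. The first set met the same gene rule on all its UMIs: 594 barcodes in EMF_AuNPs with a median of 2435.5 UMIs, and 1535 in control with a median of 1677. With more UMIs, 3 astrocyte genes are easier to reach and 6 genes harder to miss, and this set held much choroid plexus RNA, 82719 CPM in EMF_AuNPs and 95943 CPM in control. The second set met the rule after each barcode was thinned to 500 UMIs, 934 barcodes in EMF_AuNPs and 1902 in control, with 7276 and 11870 CPM of choroid plexus RNA. It was added after the values of the first were seen. The 2 sets share 397 and 1136 barcodes, so results against them are not independent.

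Members carried less astrocyte RNA than the deeper barcodes that met the rule after thinning. The astrocyte genes outside the rule gave 20166 CPM in members and 35681 CPM in those barcodes in EMF_AuNPs (log2 ratio -0.82, -0.87 to -0.78), and 22496 and 29594 CPM in control (-0.40, -0.42 to -0.37). Against the set chosen with the same gene rule the log2 ratio was -0.28 in EMF_AuNPs and 0.09 in control, so the direction in control depended on how the deeper barcodes were chosen. The glutamate and GABA list was lower against the thinned-rule set by -0.80 in EMF_AuNPs and -0.46 in control, the lipid list by -0.93 and -0.26, and the Notch and progenitor list by -0.73 and -0.42. Apoe, the lipid carrier of astrocytes, gave 17892 CPM in members and 33435 CPM in the thinned-rule set in EMF_AuNPs (-0.90), and 29456 and 34091 CPM in control (-0.21). Clu, the lipoprotein clusterin, gave 3925 and 9898 CPM in EMF_AuNPs (-1.33) and 6038 and 7051 CPM in control (-0.22).

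Against the thinned-rule set, 35 of 1218 genes (2.87%) were at least 1.5-fold higher in members in both libraries and 26 (2.13%) lower, 5.01% in all. Against the same-rule set the counts were 69 of 1190 higher (5.8%) and 29 lower (2.44%), 8.24% in all. The 8 genes highest against the thinned-rule set were Syt1, Nrgn, Hba-a2, Hbb-bs, Mir6236, Grin2b, Ttr and Pcp4. Syt1, the synaptic vesicle calcium sensor, gave 78.4 CPM in members and 16.3 CPM in the thinned-rule set in EMF_AuNPs (log2 ratio 2.20), and 214 and 74.0 CPM in control (1.52). Nrgn, neurogranin of forebrain neurons, gave ratios of 1.85 in EMF_AuNPs and 1.47 in control. Grin2b, an NMDA receptor subunit, gave 1.52 and 1.15. The globin Hbb-bs gave 1.52 and 1.34, and Ttr gave 1.12 and 1.14, but against the same-rule set Ttr gave -2.35 and -1.86.

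Of the 8 genes lowest against the thinned-rule set, 2, Sox9 and Lhx2, encode transcription factors of astrocytes and their precursors and had at least 100 UMIs over the members. The others had fewer and were tested only through their level in the thinned-rule set. Over both libraries together those could thus only be lower, and their direction is no result. Sox9 gave 209 CPM in members and 488 CPM in the thinned-rule set in EMF_AuNPs (-1.22), and 230 and 390 CPM in control (-0.76). Lhx2 gave -0.98 in EMF_AuNPs and -0.75 in control. S100a10, a partner of annexin A2, gave 56.6 and 161 CPM in EMF_AuNPs (-1.49) and 47.9 and 130 CPM in control (-1.42). Psph, the last enzyme of serine synthesis, gave -0.77 and -0.90, Tmed5, a carrier between the endoplasmic reticulum and Golgi, -1.03 and -0.85, and Paqr7, a progestin receptor, -1.90 and -0.75. Mageh1 gave -1.02 and -0.94. Utp14b, at -1.69 and -0.84, overlaps Acsl3 on the same strand in the annotation, so its reads are uncertain.

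Gene lists showed which RNA was higher in members, given here as the 1.5-fold counts in both libraries. The microglia list had 7 of 8 tested genes higher against the thinned-rule set and 8 of 8 against the same-rule set. C1qa and C1qb, subunits of complement C1q, gave 1.15 and 1.28 in EMF_AuNPs and 0.82 and 0.97 in control against the thinned-rule set. Fcer1g and Trem2, which belong to microglial receptor signalling, gave 1.28 and 1.15 in EMF_AuNPs and 1.04 and 0.88 in control. The neuron list had 4 of 5 higher against the thinned-rule set and 3 of 5 against the same-rule set. The oligodendrocyte list had 0 of 9 higher against the thinned-rule set and 9 of 9 against the same-rule set. Cldn11, a claudin of myelin, gave 1.36 in EMF_AuNPs and 0.03 in control against the thinned-rule set, and 1.77 and 1.49 against the same-rule set. Opalin, a myelin membrane protein, gave 1.65 and 0.25, then 1.86 and 1.66, in the same order. The absence clause of the rule bears harder on deeper barcodes. Without the clause, Cldn11 and Mal turned lower in members in both libraries, and Opalin, C1qa, C1qc and Trem2 in control. C1qb and Fcer1g did not turn. The ratios against the same-rule set thus depend on the clause for these genes. Leaving it out also changes the members, and the part of the clause alone was not tested.

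The sign of the choroid plexus genes depended on the choice of the deeper set. The choroid plexus list had 2 of 2 genes higher against the thinned-rule set and 6 of 6 lower against the same-rule set, among them Ttr, Sostdc1, Prlr and Enpp2. These 4, with Kcnj13, Mia and the mural contractile genes Tagln and Acta2, were the 8 lowest genes against the same-rule set. Of the 6 choroid plexus genes, 2 (Ttr and Enpp2) had at least 100 UMIs over the members. The others, like Kcnj13, Mia, Tagln and Acta2, were tested only through their level in the same-rule set. Over both libraries together they could thus only be lower, and their direction is no result. Sostdc1 gave -2.99 in EMF_AuNPs and -2.45 in control there, and Tagln -2.22 and -2.97. Among astrocyte genes outside the rule, 0 of 20 were higher against either set, and 1 of 20, Sox9, was lower in both libraries against the thinned-rule set. The median log2 ratio of these 20 was -0.93 in EMF_AuNPs and -0.27 in control, against -0.15 and -0.05 over all genes tested. The cytosolic ribosomal protein list had 0 of 78 called, with medians of 0.29 and 0.26. The respiratory chain list had 0 of 67 called.

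Malat1 itself differed between the libraries in this contrast. In EMF_AuNPs it gave 119654 CPM in members and 73348 CPM in the thinned-rule set (0.71), and in control 125804 and 133736 CPM (-0.09). Neat1, a nuclear RNA of paraspeckles, gave 1.22 in EMF_AuNPs and 0.00 in control. Cryab, a small heat shock protein also abundant in oligodendrocytes, gave 1.28 in EMF_AuNPs and -0.10 in control.

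**Figure D4:**
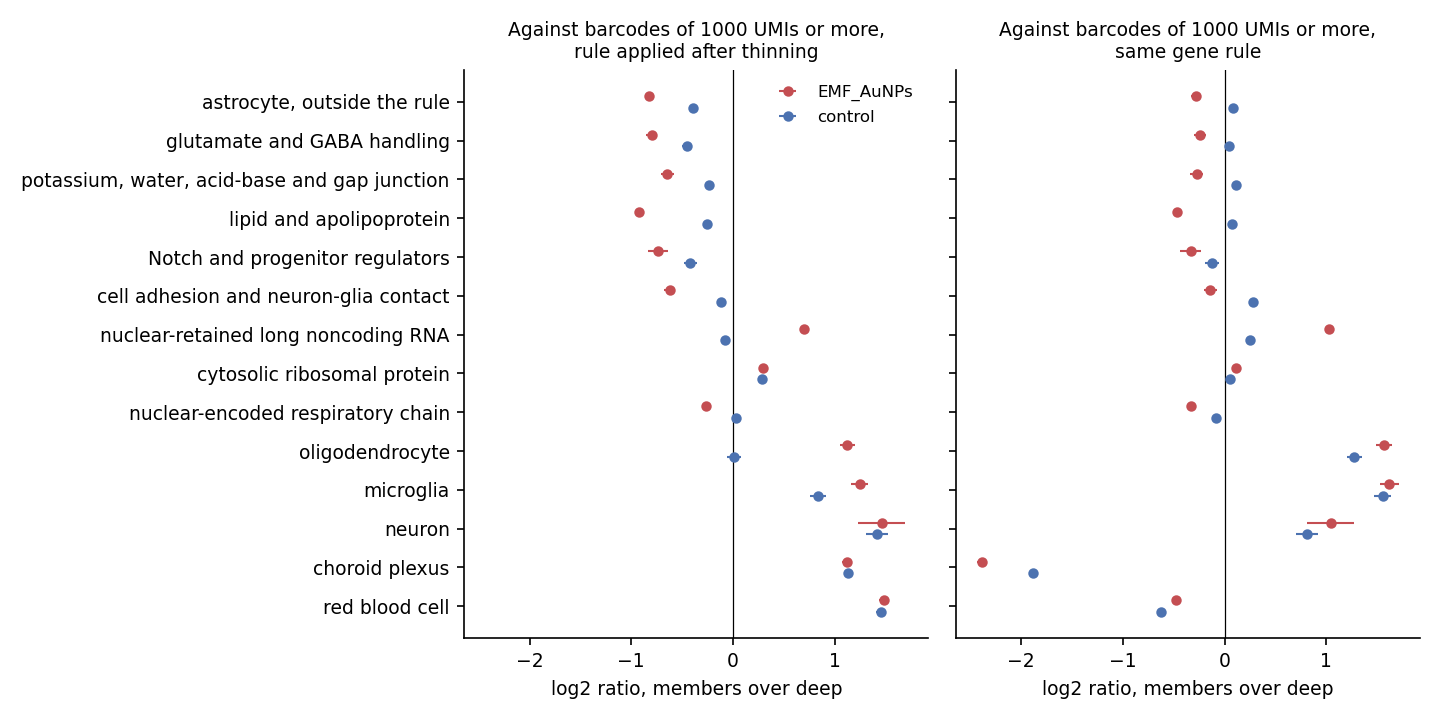
Each point is the log2 ratio of a list's summed CPM in members over barcodes of 1000 UMIs or more, with its 95% counting interval, in EMF_AuNPs (red) and control (blue); the left panel uses the rule after thinning and the right panel the same gene rule. Astrocyte lists lie below 0 on the left (-0.82 and -0.40 for the genes outside the rule), microglia and neuron lists lie above 0 in both panels, and the choroid plexus list changes sign between them.

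The members of the EMF_AuNPs library were last compared with those of control, gene by gene, to see what differed with the treatment. Of 1093 genes tested, 128 were at least 1.5-fold higher in EMF_AuNPs members (11.7%) and 185 were lower (16.9%), 28.6% in all. The median log2 ratio over all of them was -0.08. With ratios centred on that median the counts were 153 higher and 144 lower, so 51.5% of called genes were higher in place of 40.9%. In barcodes of 1000 UMIs or more that met the rule after thinning, 106 of the same genes were higher (9.7%) and 117 lower (10.7%), 20.4% in all. Genes were tested by their UMIs summed over the members of both libraries. EMF_AuNPs members held 229546 UMIs and control members 542709, so a gene high in control passed this limit more easily. With at least 30 UMIs, 788 genes were higher in EMF_AuNPs members and 594 lower, and with at least 300 UMIs, 29 and 49. Which direction held more genes thus depended on the limit. Since each group is 1 library, the treatment, the animals and the preparation of the library cannot be told apart.

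The sum of the astrocyte genes outside the rule was slightly lower in EMF_AuNPs members than in control members (log2 ratio -0.16, -0.21 to -0.11). It was higher by 0.27 in the deeper barcodes and by 0.43 in the other shallow barcodes. Of 20 tested, 0 were higher in EMF_AuNPs members and 3 were lower, with a median log2 ratio of -0.15. Over all 1093 genes tested, 11.7% were higher and 16.9% lower, so the count of lower genes is near that share. In the deeper barcodes their median was 0.33. Slc1a2 gave a log2 ratio of 0.02 (-0.06 to 0.10) in members and 0.34 in the deeper barcodes, and Gfap gave 0.01 (-0.35 to 0.36) in members and 0.50 in the deeper barcodes. The 3 lower genes were F3, tissue factor of the clotting cascade, S1pr1, a receptor for sphingosine-1-phosphate, and Gpc5, a heparan sulphate proteoglycan. S1pr1 gave 283 CPM in EMF_AuNPs members and 588 CPM in control members (-1.05, -1.46 to -0.66), and F3 gave 74.1 and 182 CPM (-1.29, -2.14 to -0.55). Gpc5 gave 109 and 214 CPM (-0.97). In the deeper barcodes S1pr1 gave -0.01, Gpc5 0.02 and F3 -0.80.

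Several of the named genes were lower in EMF_AuNPs members. Sparcl1, the synapse-promoting protein hevin (mm10 chr5:104079111-104113733, minus strand), gave 2030 CPM in EMF_AuNPs members and 5353 CPM in control members (-1.40, -1.54 to -1.26), and -0.57 in the deeper barcodes. Ptn, the growth factor pleiotrophin (chr6:36714929-36810220, minus strand), gave 836 CPM in EMF_AuNPs members and 2532 CPM in control members (-1.60, -1.82 to -1.38), and -1.19 in the deeper barcodes. Ptn was found in 32.7% of EMF_AuNPs members and 63.8% of control members after thinning to 500 UMIs. Ptprz1, the phosphatase that binds pleiotrophin, gave 514 and 1310 CPM (-1.35), and -0.94 in the deeper barcodes. Apoe (chr7:19696109-19699188, minus strand) gave 17892 CPM in EMF_AuNPs members and 29456 CPM in control members (-0.72, -0.77 to -0.67), but -0.03 in the deeper barcodes. Clu gave 3925 and 6038 CPM (-0.62), against 0.49 in the deeper barcodes. Mt3 gave 3903 and 7306 CPM (-0.90), and Gstm5, a glutathione transferase, 1237 and 2117 CPM (-0.77), against -0.15 and -0.03 in the deeper barcodes.

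Lists of astrocyte function had few tested genes each. Their counts stand beside 11.7% higher and 16.9% lower over all 1093 genes tested, and several lie near those shares. The cell adhesion list had 2 of 17 genes higher and 5 lower in EMF_AuNPs members, with a summed log2 ratio of -0.49 (0.01 in the deeper barcodes). The lipid list had 1 of 16 higher and 3 lower, with a sum of -0.48 (0.19 in the deeper barcodes). Its higher gene was Msmo1, an enzyme of cholesterol synthesis, at 309 CPM in EMF_AuNPs members and 162 CPM in control members (0.93). The glutamate and GABA list had 2 of 7 higher and 2 lower. Slc38a3, a glutamine transporter, gave 218 CPM in EMF_AuNPs members and 129 CPM in control members (0.75), and Glud1, glutamate dehydrogenase, 388 and 686 CPM (-0.82). In the ion and gap junction list, 1 of 14, the scaffold Slc9a3r1 (named after its value was seen), was higher (0.61) and 2 were lower: Fxyd1, a sodium pump regulator, gave 449 and 833 CPM (-0.89) and Kcnj10, the potassium channel Kir4.1, 113 and 190 CPM (-0.74). The glycolysis list (0 of 10) and the Notch and progenitor list (0 of 13) had no gene called.

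**Figure D5:**
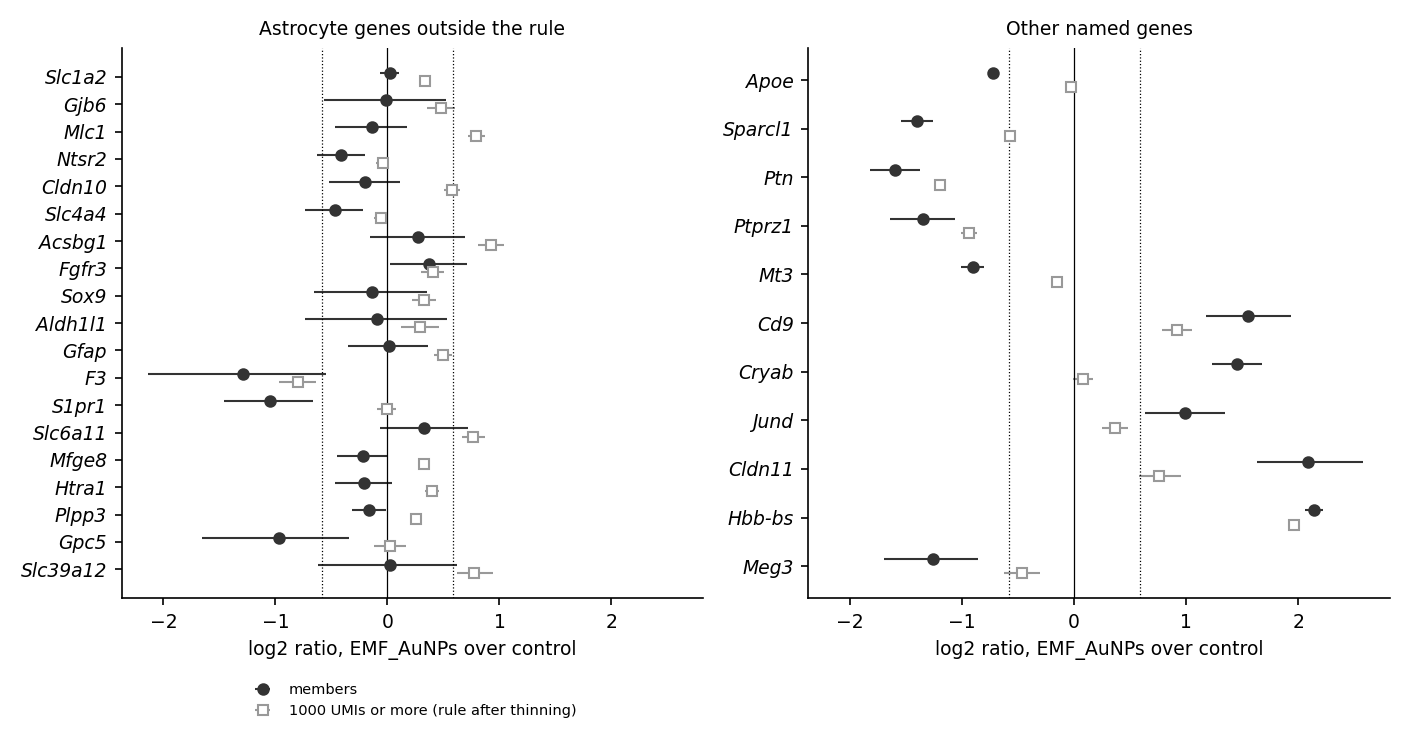
Log2 ratios of EMF_AuNPs over control, with 95% counting intervals, are shown for tested astrocyte genes outside the rule (left) and other named genes (right), in members (filled circles) and in barcodes of 1000 UMIs or more that meet the rule after thinning (open squares); dotted lines mark 1.5-fold. Sparcl1, Ptn, Ptprz1, Apoe and Mt3 lie below 0 in members, Apoe and Mt3 lie near 0 in the deeper barcodes (-0.03 and -0.15), and Slc1a2 and Gfap lie at 0.02 and 0.01 in members.

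RNA of other cells separated the members of the 2 libraries. The oligodendrocyte list had 8 of 9 genes higher in EMF_AuNPs members, with a median of 1.18, and summed to 7476 CPM against 3589 CPM in control members (1.06). The same sum was -0.05 in the deeper barcodes and -0.20 in the other shallow barcodes. The oligodendrocyte precursor sum was higher by 0.79 (0.46 to 1.11) in EMF_AuNPs members, but -0.12 in the deeper barcodes and -0.06 in the other shallow barcodes. The microglia list had 5 of 8 higher, and its sum was 0.99 in members, 0.58 in the deeper barcodes and 0.67 in the other shallow barcodes. The neuron list had 5 of 5 lower, with a sum of -1.04 in members, -1.08 in the deeper barcodes and -0.47 in the other shallow barcodes. The red blood cell list was higher by 1.76 in members and by 1.74 in the deeper barcodes, and the choroid plexus list differed by -0.72 and -0.71. Without barcodes over 5% Ttr or haemoglobin, the red blood cell list was higher by 3.39 (3.28 to 3.50) in members and by 2.63 (2.57 to 2.68) in the deeper barcodes, and the choroid plexus list differed by -0.78 and -0.99. The part of this RNA in the differences between members was not tested.

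Among the genes highest in EMF_AuNPs members were globin and myelin genes. Hbb-b2 and Hbb-bs, globins whose near-identical copies share reads, gave log2 ratios of 2.95 and 2.14. Cldn11 of myelin gave 475 CPM in EMF_AuNPs members and 111 CPM in control members (2.09), Gatm, the first enzyme of creatine synthesis, 353 and 81.1 CPM (2.11), and Ppp1r14a, an inhibitor of myosin phosphatase, 584 and 170 CPM (1.78). Gatm was 0.65 and Ppp1r14a -0.20 in the deeper barcodes. Ogt, which adds N-acetylglucosamine to nuclear and cytosolic proteins, gave 288 CPM in EMF_AuNPs members and 62.6 CPM in control members (2.18), and 1.22 in the deeper barcodes. Fut9, a fucosyltransferase that makes the Lewis x sugar, gave 296 and 82.9 CPM (1.82), and 1.40 in the deeper barcodes.

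The 8 genes lowest in EMF_AuNPs members included several with few UMIs. Casc4 gave 34.9 CPM in EMF_AuNPs members, from 8 barcodes, and 197 CPM in control members, from 94 barcodes (-2.47, -3.75 to -1.47). Soat1, which esterifies cholesterol, gave 43.6 and 192 CPM (-2.11), and Zfp106, an RNA-binding zinc finger protein, 52.3 and 182 CPM (-1.78). Camk2a, a kinase of excitatory synapses, gave 52.3 and 171 CPM (-1.69), and Dnajc8, a chaperone of the spliceosome, 61.0 and 177 CPM (-1.52). Morf4l1, a chromatin protein counted together with a pseudogene, gave -2.12, and the pseudogene Pisd-ps1 gave -1.77. Both may share reads with copies and are uncertain. In the deeper barcodes these 7 genes, Ptn being the eighth, ran from -1.65 to -0.66. Those barcodes come from the same 2 libraries and are no independent check.

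Stress and early response genes were few at this depth. Of 4 tested immediate early genes, 3 were higher in EMF_AuNPs members, and the list summed to 2431 CPM against 1266 CPM in control members (0.94, 0.78 to 1.10), 0.28 in the deeper barcodes and 0.61 (0.56 to 0.67) in the other shallow barcodes. The list was lower in members than in the other shallow barcodes, which gave 5784 CPM in EMF_AuNPs and 3780 CPM in control. The microglia list was higher in EMF_AuNPs members too, by 0.99, and its part in this difference was not tested. Rhob, a small GTPase, gave 301 and 116 CPM (1.37), and Jund, an AP-1 subunit, 527 and 265 CPM (0.99). Cryab gave 1560 CPM in EMF_AuNPs members and 569 CPM in control members (1.45), and 0.08 in the deeper barcodes. Hsp90b1, a chaperone of the endoplasmic reticulum, gave 240 and 440 CPM (-0.88). Among reactive astrocyte genes, Cd9, a tetraspanin, gave 575 and 195 CPM (1.55) and H2-K1, a class I histocompatibility molecule, 240 and 122 CPM (0.97), while 2 of 4 were not called. Of the Cd9 UMIs in EMF_AuNPs members, 13.6% came from 1 barcode, and of the H2-K1 UMIs 10.9%. The reactive list summed to 0.47 in members, 0.51 in the deeper barcodes and 0.48 in the other shallow barcodes.

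Transcripts of the translation and respiration machinery differed less. Of 77 ribosomal protein genes, 3 were higher and 8 lower in EMF_AuNPs members, with a median of -0.13. Rpl23a gave 449 CPM in EMF_AuNPs members and 907 CPM in control members (-1.01) and Rpl38 gave 457 and 894 CPM (-0.96). Ribosomal protein genes have many pseudogene copies, and reads shared with them are uncertain. The respiratory chain list had 0 of 66 higher and 6 lower, with a median of -0.24. Ndufa3, a complex I subunit, gave 157 and 306 CPM (-0.96), and Cox7c, a cytochrome oxidase subunit, 340 and 566 CPM (-0.73). Malat1 (chr19:5795690-5802672, minus strand) gave 119654 CPM in EMF_AuNPs members and 125804 CPM in control members (-0.07), but -0.87 in the deeper barcodes. Meg3 and Snhg11, noncoding RNAs abundant in neurons, gave -1.26 and -1.16 in members, and 0.16 and 0.032 under a higher UMI limit.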

How the data were processed

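Per the submitters' processing notes, the authors used Cell Ranger 3.0.2, STAR and the mm10 build. The gene annotation behind the deposited counts is not stated. The authors' deposited tables give whole-number counts of UMIs for 24130 gene symbols. They include 0 mitochondrially encoded genes, so no mitochondrial share was computed. UMIs were summed over the barcodes of a set and given as CPM, with exact Poisson intervals. Log2 ratios of gene levels add 1 CPM and carry exact conditional binomial intervals; those of list sums add none. Tested genes had at least 100 UMIs over the members of both libraries (against deeper barcodes, also genes whose level there would give as many), without the 16 rule genes. No filter beyond the rule was applied. Doublets stayed in: Scrublet (scanpy 1.11.5) called 10 of 7003 EMF_AuNPs barcodes (0.143%), so it had not worked there, and 3327 in control (15.4%). Leaving out the highest scores at the expected rate (5.60% and 17.3%) was tried in place of the calls. Named genes were the 8 highest and 8 lowest of each comparison with an interval excluding 0 (against deeper barcodes, by the smaller ratio of the 2 libraries), up to 2 per pathway list, and the tested astrocyte genes outside the rule. Some genes that this rule names are not reported here. The members and lists were chosen with earlier results of these data known. Genes counted by a 1.5-fold limit, and the intervals, were checked on simulated counts that carried counting error only. Uneven spread of a gene's UMIs over barcodes was not simulated, so the check does not cover it. Coordinates come from GENCODE on the same build. Python 3.11.15, numpy 2.4.6, scipy 1.17.1 and pandas 2.3.3 were used.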

Additional observations from a re-analysis of the deposited data

How the results depend on the processing

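The results were recomputed under 20 alternatives. Leaving out barcodes over 5% Ttr or haemoglobin, under 2% Malat1 or with the highest doublet scores, and the thinned-rule set, were chosen after seeing the data. No paired analysis was possible because each group is 1 library. No replicate was left out, since there was 1. Taking out the doublets that Scrublet called was not run. Genes under 100 UMIs were not tested.

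The difference in the members' share of shallow barcodes (0.266 points) was 14.7 with no excluded genes, -2.63 without barcodes with a precursor UMI and 3.24 with thinning to 500 UMIs. Genes higher and lower in EMF_AuNPs members (128 and 185) were 64 and 92 below 800 UMIs, 222 (higher) under the higher UMI limit, 385 and 313 with no excluded genes, 788 and 594 with at least 30 UMIs, and 29 and 49 with at least 300 UMIs. The log2 ratio of astrocyte genes outside the rule, EMF_AuNPs over control (-0.16), was -0.25 with at least 4 rule genes, -0.064 with no excluded genes, -0.23 without barcodes with a neuronal UMI, -0.24 without a precursor UMI, -0.22 with thinning and -0.21 without the highest doublet scores.

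Members over deeper barcodes of the same gene rule (genes higher 69, lower 29) gave 110 and 55 with at least 2 rule genes, 42 and 15 with at least 4, 35 and 17 below 800 UMIs, 134 and 77 under the higher UMI limit, 215 and 241 with no excluded genes, 336 and 141 with at least 30 UMIs, 18 and 6 with at least 300 UMIs, 30 and 18 with equal weight per barcode, and 43 and 54 without barcodes under 2% Malat1. Genes higher were 34 with thinning, 39 without barcodes over 5% Ttr or haemoglobin, and 35 against the thinned-rule set. The astrocyte list in members over deeper barcodes (EMF_AuNPs -0.28, control 0.09) was -0.22 and 0.12 with at least 2 rule genes, -0.39 and 0.042 with at least 4, -0.36 and -0.0073 below 800 UMIs, -0.23 and 0.19 under the higher UMI limit, 0.37 and 0.81 with no excluded genes, -0.80 and -0.32 with thinning, -0.65 and -0.22 without barcodes over 5% Ttr or haemoglobin, -0.67 and -0.20 without barcodes under 2% Malat1, and -0.82 and -0.40 against the thinned-rule set. It was -0.34 in EMF_AuNPs without a neuronal UMI and 0.12 in control without the highest doublet scores. The cause of these shifts was not tested.

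Of the named genes' values, 2792 kept their size within counting error, 530 moved and 42 turned. Under the higher UMI limit, Meg3 and Snhg11 (EMF_AuNPs over control) turned to 0.16 and 0.032. The others are members over deeper barcodes. With no excluded genes, in EMF_AuNPs: Cldn11 -0.40, Mal -0.64, Ptprd -0.67, Fth1 -0.038, Rhob -0.31, Cldn10 0.22 and Gpc5 0.45; in control: Cldn11 -1.53, Opalin -1.22, Mal -1.46, C1qa -0.15, C1qc -0.17, Trem2 -0.15 and Ptprd -1.07. With thinning, Enpp2 gave 1.14 and 0.31, Ttr 1.08 and 1.11 (EMF_AuNPs, then control), and in control Mal -0.27 and Atp5g1 0.085. Without barcodes over 5% Ttr or haemoglobin, Enpp2 gave 1.27 and 0.90, Ttr 1.54 and 1.27, and Atp5g1 0.26 and 0.14. Without barcodes under 2% Malat1, Ttr gave 0.93 and 0.47, and in EMF_AuNPs Enpp2 0.55 and Atp5g1 0.21. Against the thinned-rule set, Enpp2 gave 1.24 and 0.60, Ttr 1.12 and 1.14, Atp5g1 0.25 and 0.19, and Mal -0.023 in control. With equal weight per barcode, Atp5g1 gave 0.021 and 0.058, and Slc12a2 0.17 in control.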
